A study of Rattus norvegicus with 8 samples.

Results

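The genes described here encode potassium, sodium, calcium and chloride channels. They were taken as every gene spot of the array whose symbol begins with Kcn, Cacn or Clcn, or with Scn followed by a digit. The rule found 239 of 42877 gene spots, which hold 194 of 30367 distinct probes and stand for 141 of 26331 genes. A probe was carried into the comparisons when the scanner marked it well above background in some RNA group on 3 or more of that group's 4 arrays. In all, 49 channel probes of 41 genes were carried.

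The RNA came from adult male Wistar rats aged 120 ± 12 days, per the labels. All groups carry the same lesion, since the control rats and the treated rats had both been castrated. Treated rats were given testosterone propionate once, under the skin, at 4 mg/kg with corn oil as the vehicle, and RNA was taken at 8 h or at 24 h. The control source is labelled for the same times, and the labels do not say whether control rats received oil. The study's title names muscle atrophy, but the labels name no muscle and describe the material only as castrated rat cells. Each of 8 two-colour arrays set treated RNA against control RNA, 4 arrays at each time, with the dyes exchanged on 2 of the 4. The series' design calls the 4 arrays of a time biological replicates and does not say whether RNA was pooled, or whether arrays shared control RNA. P-values therefore measure the spread between these arrays.

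In skeletal muscle, the nerve's signal becomes an action potential through the sodium channel Scn4a, and potassium channels and the chloride channel Clcn1 bring the fibre back to rest. The action potential runs into the transverse tubules, where the voltage-gated calcium channel acts as the sensor that triggers calcium release from the sarcoplasmic reticulum. That calcium channel is built from the pore and sensor Cacna1s with the auxiliary subunits Cacna2d1, Cacnb1 and Cacng1. Muscle excitability is known to alter with denervation and disuse.

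The probes of the genes on which the results turn are shown by their first 30 of 60 bases, because for Cacng1, Clcn1 and Kcnma1 a pair of probes of 1 gene gave different values. The Cacna1i pair also gave different values at 8 h and is not shown. Positions are those of the array's design on build rn4. All bases are in lower case because no part is singled out.
Kcnk6, chr1:84359796-84359855, minus strand: cgaactcaaccagtagcacatgcctgtaac
Cacng1 probe A_43_P11994, chr10:97105946-97106005, minus strand: acggtctggattgagtactattattcgtgg
Cacng1 probe A_64_P064820, chr10:97105708-97105767, minus strand: tgagctcctctacaaacagtgcacatggac
Scn4b, chr8:48106487-48106546, plus strand: tcctctggcttggataacagtacccatagt
Clcn1 probe A_43_P11736, chr4:70081334-70081393, plus strand: agctttcttcataaaaaccacagggcccat
Clcn1 probe A_64_P018102, chr4:70058568-70058627, plus strand: tttgttcacattgccagcatctgtgctgct
Kcnma1 probe A_64_P105078, chr15:950227-950286, plus strand: ctgtcaaggaaatgacttttcttcaaattt
Kcnma1 probe A_64_P131632, chr15:323124-323183, plus strand: tcttcatcatcttgctctggcggactctca
The Cacng1 probes start 238 bases apart, the Clcn1 probes 22766 bases apart and the Kcnma1 probes 627103 bases apart. The exon or untranslated region each probe lies in was not read, since no rn4 annotation was used here.

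Channel probes were dim more often than the array as a whole. Of the 194 channel probes, 25.3% were carried, against 39.8% of all gene probes, and 124 were well above background on no array. The potassium channels had the lowest share, with 26 of 129 Kcn probes carried, followed by 4 of 16 Scn, 13 of 36 Cacn and 6 of 13 Clcn probes. None of the 21 probes for potassium channel auxiliary subunits and interacting proteins (Kcnab, Kcne, Kcnip, Kcnmb and related genes) was carried. At the edge of the rule, 4 probes just inside it reached 3 arrays in their best group and 10 just outside it reached 2, the latter including 1 probe each for Scn3a and Kcne4. No carried channel probe was saturated.

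**Figure D1:**
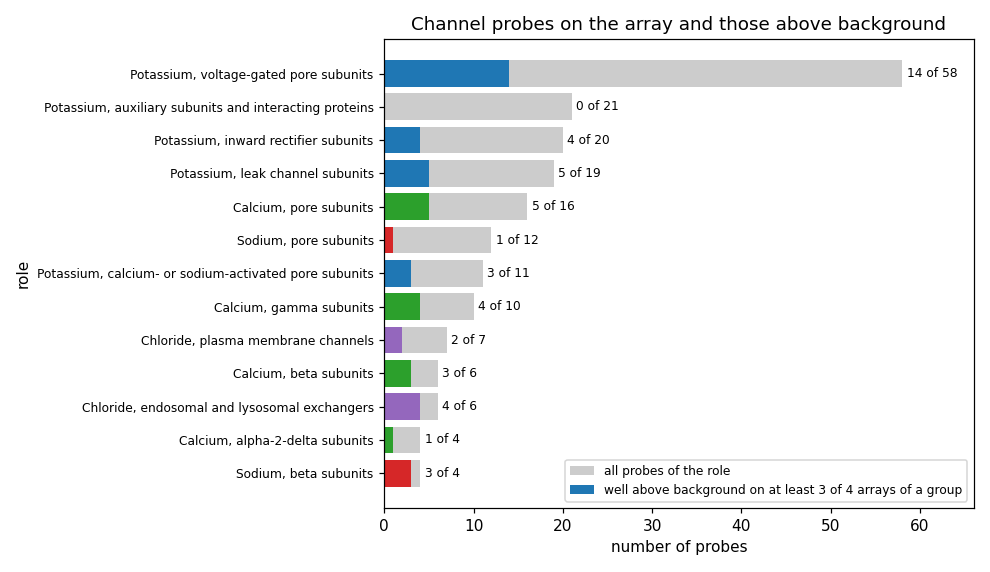
Number of probes on the array for each kind of channel subunit (grey) and number carried into the comparisons (coloured by ion: potassium blue, sodium red, calcium green, chloride purple). Voltage-gated potassium channels hold the most probes, 58 with 14 carried, and none of the 21 potassium auxiliary probes was carried.

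From a list of 27 channel genes of muscle, all on the array, 19 were carried. They included the muscle sodium channel Scn4a, all 4 named subunits of the muscle calcium channel (Cacna1s, Cacna2d1, Cacnb1, Cacng1), the chloride channel Clcn1 and the ATP-sensitive potassium channel pore Kcnj11. The other 8 included Clcn4, Clcn5, Kcnj2, Kcnc1, Kcnq5, Kcne3 and Kcnab1, and no level was described for these. Skeletal muscle fibre markers were present, with 12 of 14 marker genes on the array carried. No probe was carried for the fibre markers Myh2, Myh7 and Mylpf. Cardiac muscle markers were nearly absent, with 1 of 6 (Tnnt2) carried, while Myh6, Myl7, Nppa, Nppb and Tnni3 were not.

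At 24 h, 3 of the 49 channel probes passed the test, which is limma's moderated test of the log2 ratio of treated over control RNA, adjusted over all carried probes, at a threshold of 0.05. Higher after testosterone were Kcnk6, a two-pore-domain leak potassium channel, and 1 probe of Cacng1, the gamma subunit of the muscle calcium channel. Lower was Scn4b, an auxiliary beta subunit of sodium channels. The share of channel probes called, 6.12%, was close to the 6.92% called among all 12073 probes tested. In the upward direction it was 2 probes against a background of 4.15%, and in the downward direction 1 probe against 2.77%. The median log2 ratio of the 49 probes at 24 h was -0.06, with 17 above 0 and 32 below, and that of all probes was 0.00. With median centring the channel median turned to 0.05 at 24 h and 0.00 at 8 h, beside 0.15 and 0.12 for all probes. At an unadjusted p under 0.05 there were 9 channel probes, or 18.4%, against 21.9% of all probes.

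At 8 h no channel probe passed, and the background was 0.0249%, or 3 of 12069 probes. At an unadjusted p under 0.05 there were 7 channel probes, or 14.3%, against 16.9% of all probes. The median log2 ratio of the channel probes at 8 h was -0.06, with 14 above 0 and 35 below. The test of the 24 h ratio against the 8 h ratio called 2 channel probes, Kcnk6 and Scn4b, or 4.08% against a background of 1.26%. The 4 arrays of each time lay on a slide of their own, and in that test the slide and the time cannot be told apart.

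The array of 8 h replicate 1 stood apart, with a standard deviation of log2 ratios of 0.44 over all carried probes against 0.18 to 0.20 on the other 8 h arrays. It gave the lowest of the 4 values for 26 of the 49 channel probes. The array of 8 h replicate 2 gave the highest value for 25 of the 49. Such counts over all carried probes are not given, so these are not shown to be particular to the channels. Without the array of 8 h replicate 2, 10 channel probes passed at 8 h, 1 higher and 9 lower. Over all probes 1293, or 10.7%, then passed, so the 20.4% of channel probes rests on which arrays are used. The 10 held Cacng1 (probe A_64_P064820) on the higher side and, among those on the lower side, Scn4a, Kcna6, Kcnh3, Kcnn3, Kcnma1, Clcn6, Clcn7 and Cacna1i, and none of the 10 passed with all 8 arrays.

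**Figure D2:**
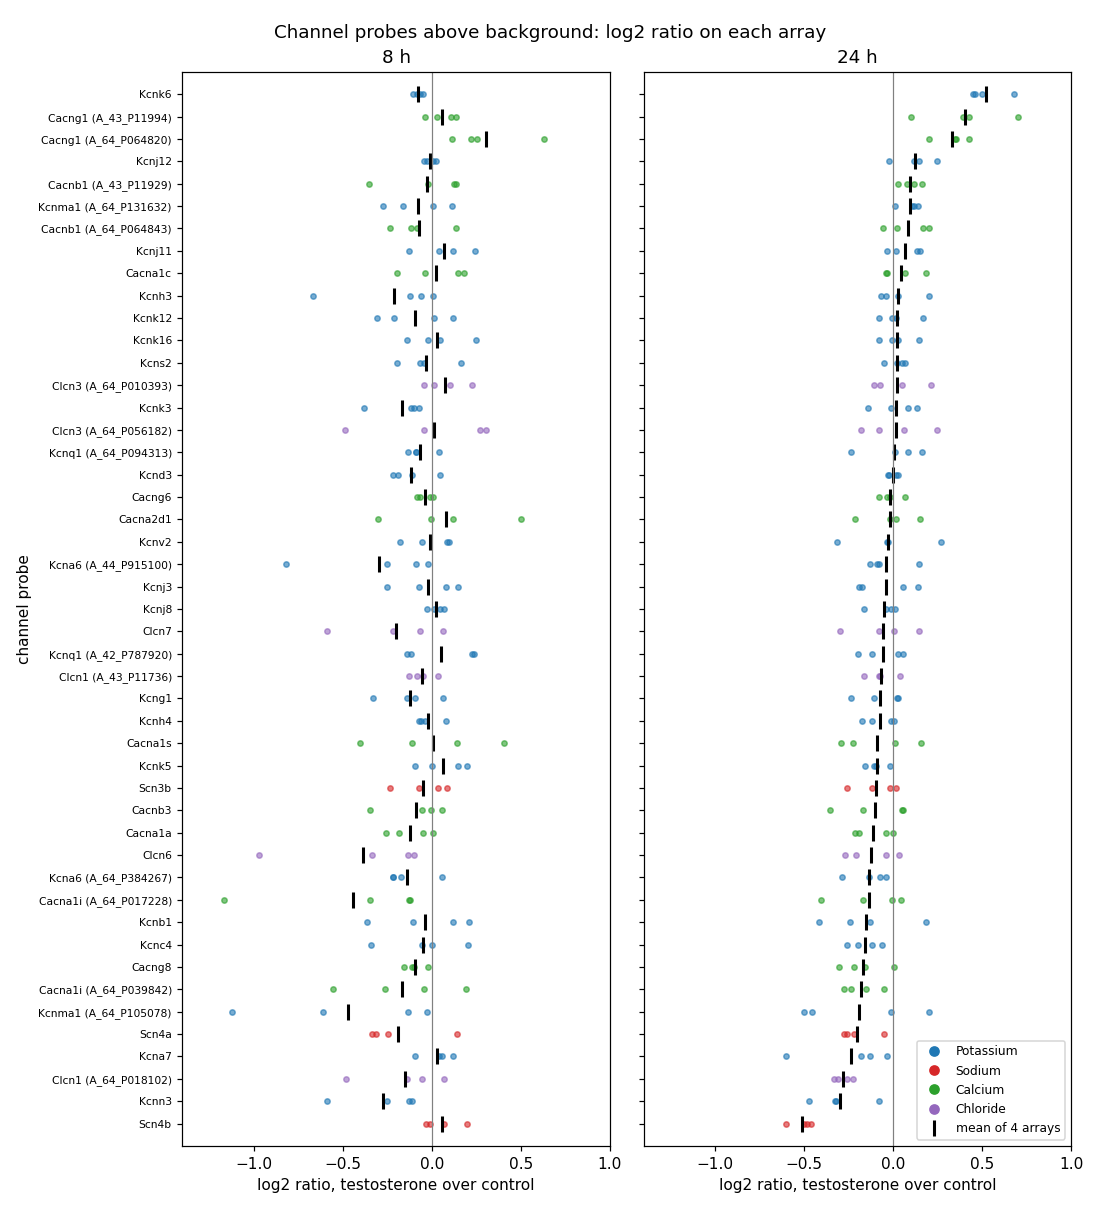
Log2 ratio of testosterone over control on each of the 4 arrays at 8 h (left) and 24 h (right) for 47 of the 49 channel probes, ordered by the 24 h mean (black bar) and coloured by ion. At 24 h Kcnk6 lies at the top with all points at 0.45 or more and Scn4b at the bottom with all points below -0.46, while at 8 h points of single arrays spread to -1.17.

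Of the leak potassium channels, which set the resting potential, 5 of 19 probes were carried and only Kcnk6 passed. Kcnk6 had log2 ratios of 0.50, 0.45, 0.68 and 0.46 on the 4 arrays at 24 h, all above 0. At 8 h its log2 ratios were -0.08, -0.11, -0.06 and -0.05, all below 0, and the groups of the 2 times did not overlap. On the 24 h arrays the normalized log2 signal was 6.35 ± 0.08 in control RNA and 6.87 ± 0.14 in treated RNA (SD, n = 4). This dim signal was well above background on 2 of the 4 control samples and on all 4 treated samples. On the 8 h arrays it was 6.62 ± 0.10 in control RNA and 6.54 ± 0.09 in treated RNA. From 8 h to 24 h the control level was thus lower and the treated level higher, with time and slide not told apart.

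Kcnk6 thus rose 1.43-fold at 24 h (log2 0.52 ± 0.11, SD, n = 4, adjusted p = 0.00207), against a log2 ratio of -0.08 ± 0.02 at 8 h (adjusted p = 0.555). The difference between the times was 0.60 on the log2 scale (SE 0.09, adjusted p = 0.0171). That call was lost with median centring (0.64, adjusted p = 0.31) and without 8 h replicate 3 or 4 or 24 h replicate 1 or 3, where adjusted p lay between 0.054 and 0.08. The size depends on how the background of a dim probe was handled: the log2 ratio at 24 h was 0.93 with an offset of 10 in place of 50, and 1.64 on the scanner's processed signals, with adjusted p between 1.66e-04 and 0.0238 over the 19 alternatives that kept the probe. The strict filter, which asks for signal well above background on all 4 arrays of every group, left the probe out.

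Markers of some other cell types moved over the same arrays as Kcnk6. As higher at 24 h, 4 of 10 macrophage and monocyte probes and 1 of 7 endothelial probes passed. So did 3 of 7 fibroblast and 1 of 4 adipocyte probes, against 4.15% of all probes. Of 8 macrophage and monocyte marker genes carried, 4 (Aif1, C1qa, C1qc and Cd163) passed as higher at 24 h by at least 1 probe. The other Aif1 probe did not pass (0.51, adjusted p = 0.0839). Adgre1 (0.05), C1qb (0.37), Cd68 (-0.02) and Csf1r (0.08 and -0.03) did not pass, and Cd14 and Mrc1 were not carried. The summed macrophage signal on the 24 h arrays ranged from 2275 to 2747 in control RNA and from 2623 to 4085 in treated RNA. These ranges overlapped. Of 5 endothelial marker genes carried, Kdr passed as higher, Cdh5, Egfl7, Pecam1 and Vwf did not, Tek and Tie1 were not carried, and the summed signals overlapped (1204 to 1669 in control RNA, 1261 to 1612 in treated RNA). Of 6 fibroblast marker genes carried, the collagens Col1a1 and Col3a1 passed as higher, Dcn, Dpt, Lum and Pdgfra did not pass and had log2 ratios from -0.25 to 0.00, and Fap was not carried. The fibroblast list's median was 0.00, and its summed signal, which includes the collagens, was 2425 to 3109 in control RNA and 4290 to 6921 in treated RNA. Of 4 adipocyte marker genes carried, Fabp4 passed as higher (0.43, adjusted p = 0.00375), Adipoq (0.37), Cfd (0.39) and Lpl (-0.03) did not, and Lep and Plin1 were not carried. The adipocyte list's median was 0.38, with a summed signal of 1211 to 1543 in control RNA and 1392 to 2298 in treated RNA. None of the 8 smooth muscle and pericyte probes (median 0.05), the 2 lymphocyte and mast cell probes (-0.01) or the 3 erythrocyte probes passed at 24 h. Nor did the cardiac marker Tnnt2 (-0.05). The erythrocyte list's median was 0.71, with a summed signal of 2387 to 4332 in control RNA and 3088 to 11353 in treated RNA. The part of these markers in the Kcnk6 result was not tested. In RNA from several cell types, a change in the number of cells of a type and a change in RNA per cell cannot be told apart.

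The other leak channels stayed within a narrow range at 24 h. Kcnk3 had a log2 ratio of 0.02 ± 0.12 at 24 h and Kcnk5 of -0.09 ± 0.06, the latter below 0 on all 4 arrays. Kcnk12 (0.02) and Kcnk16 (0.02) lay within 1 SD of 0, and none of the 4 passed at 8 h or 24 h. Both were dim, with normalized log2 signals in 24 h control RNA of 6.25 and 6.24. They were well above background there on 2 and 3 arrays, and the offset draws such ratios toward 0. Over 19 alternatives the 24 h ratio ran from -0.02 to 0.05 for Kcnk12 and from -0.02 to 0.08 for Kcnk16.

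Of the calcium channel's gamma subunits, 4 of 10 probes were carried, and 1 of the 2 Cacng1 probes passed. Probe A_43_P11994 had log2 ratios of 0.39, 0.43, 0.10 and 0.70 on the 4 arrays at 24 h. Probe A_64_P064820 had log2 ratios of 0.35, 0.43, 0.35 and 0.20. All 8 values were above 0, and the first probe spread more widely than the second.

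Cacng1 rose 1.32-fold at 24 h by the first probe (log2 0.41 ± 0.25, SD, n = 4, adjusted p = 0.0286). The second probe gave 1.26-fold and missed the threshold (log2 0.33 ± 0.09, adjusted p = 0.0559). It passed with array weights (adjusted p = 0.00842), with the arrays of 1 time in the fit (0.0126), and without 8 h replicate 1 (0.0101) or 2 (0.0327). The first probe's call was lost on the processed signals (log2 0.41, adjusted p = 0.131), with median centring (0.72, adjusted p = 0.0598), and without 8 h replicate 3 (adjusted p = 0.0559) or 24 h replicate 1 (0.126), 2 (0.0996) or 4 (0.101). Without 24 h replicate 4 its log2 ratio was 0.27. Taking the brightest probe of each gene keeps the second Cacng1 probe only.

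At 8 h the same pair of probes differed more. Probe A_43_P11994 gave 0.03, -0.04, 0.11 and 0.13, straddling 0, and probe A_64_P064820 gave 0.63, 0.12, 0.22 and 0.25. The means were 0.06 ± 0.08 and 0.30 ± 0.22 (SD, n = 4), with adjusted p = 0.768 and 0.27. The latter value was the highest of the 49 channel probes at 8 h, and neither probe's difference between the times passed.

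The other calcium channel subunits showed no call. The pore Cacna1s had log2 ratios of -0.29, -0.23, 0.01 and 0.15 at 24 h, on both sides of 0 (mean -0.09 ± 0.21, adjusted p = 0.692). Cacna2d1, the largely extracellular subunit that helps bring the channel to the surface, had a mean of -0.02 ± 0.15. Cacnb1, the cytoplasmic beta subunit of the muscle channel, gave 0.10 ± 0.06 and 0.08 ± 0.12 by its 2 probes, which start 3708 bases apart. Of the 4 subunits named above as the muscle calcium channel, Cacng1 alone passed, and the differences between subunits were not tested.

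Further calcium channel genes were carried, among them neuronal and cardiac forms. Cacng6 (-0.02 ± 0.06), another gamma subunit of muscle, and Cacng8 (-0.17 ± 0.13) did not pass at 24 h. Cacna1i, a T-type pore, had at 8 h log2 ratios of -1.17, -0.13, -0.12 and -0.35 by probe A_64_P017228 and of -0.55, 0.19, -0.04 and -0.26 by probe A_64_P039842, which starts 17 bases away. The lowest value of both probes came from the array of replicate 1, and the means of -0.44 ± 0.50 and -0.17 ± 0.32 did not pass. At 24 h the 2 probes gave -0.13 and -0.18. Cacna1a (-0.11) and Cacnb3 (-0.10) did not pass, and Cacna1c was not well above background in either RNA on any 24 h array.

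Of the sodium channel beta subunits, which modulate the pore's gating and its place in the membrane, 3 of 4 probes were carried, and Scn4b fell at 24 h. Its probe lies in 10 spots on each array, whose values were averaged. Its log2 ratios at 24 h were -0.46, -0.50, -0.60 and -0.49, all below 0 and close together. At 8 h they were 0.20, -0.03, -0.01 and 0.07, on both sides of 0 and above every 24 h value.

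The log2 ratio of Scn4b at 24 h was -0.51 ± 0.06 (SD, n = 4, adjusted p = 0.00239), a 1.43-fold lower signal, and at 8 h it was 0.05 ± 0.10 (adjusted p = 0.695). The difference between the times was -0.57 (SE 0.10, adjusted p = 0.0239). That call was lost on the processed signals (-0.99, adjusted p = 0.0587), with median centring (-0.54, adjusted p = 0.573) and without any 1 of 8 h replicates 3 and 4 and the 4 arrays at 24 h, where adjusted p lay between 0.0572 and 0.0876. On the 24 h arrays the normalized log2 signal ran from 7.51 to 7.90 in control RNA and from 6.90 to 7.43 in treated RNA, and the 2 ranges did not overlap. The log2 ratio at 24 h was -0.94 on the processed signals and -0.71 with an offset of 10, both past the threshold. It was -0.24 with median centring, where the call was lost (adjusted p = 0.322) and the median of all probes stood at 0.15.

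Over the same arrays, the summed signal of the skeletal muscle fibre markers was lower in treated RNA (151392 to 180233) than in control RNA (190446 to 224485) at 24 h. Of these 12 probes 10 had a log2 ratio below 0 at 24 h. Acta1 and Actn3 fell, Myh1 rose, and the median of the list was -0.26. The Schwann cell and nerve markers did not pass for any of 6 carried genes, with a list median of -0.01. Their part in the Scn4b result was not tested.

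**Figure D3:**
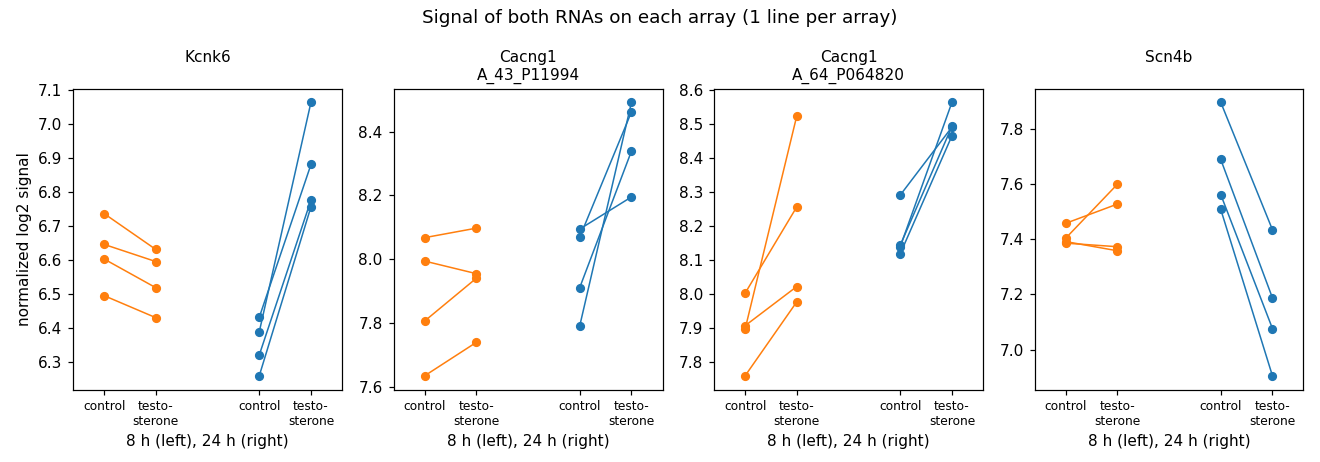
Normalized log2 signal of control and testosterone RNA on each array, 1 line per array, at 8 h (orange) and 24 h (blue), for Kcnk6, the 2 Cacng1 probes and Scn4b; each panel has its own axis, which does not start at 0. At 24 h all 4 lines rise for Kcnk6 and for both Cacng1 probes and all 4 fall for Scn4b, and at 8 h the lines of Kcnk6 dip slightly.

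The remaining sodium channel genes did not pass. Scn4a, the pore that carries the muscle action potential, had log2 ratios of -0.26, -0.22, -0.05 and -0.28 at 24 h, below 0 on all 4 arrays (mean -0.20 ± 0.10, adjusted p = 0.2). At 8 h its mean was -0.19 ± 0.22 and 1 array was above 0. With median centring the sign turned, to 0.02 at 24 h and 0.03 at 8 h. Scn3b, a beta subunit, was at -0.10 ± 0.12 at 24 h.

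The muscle chloride channel Clcn1, which stabilises the resting potential, was measured by 2 carried probes that gave different sizes. Probe A_64_P018102 had log2 ratios of -0.31, -0.23, -0.26 and -0.33 at 24 h, all below 0. Probe A_43_P11736 had log2 ratios of -0.07, 0.04, -0.16 and -0.08, and was well above background on only 1 of 4 arrays in each RNA at 24 h. The means were -0.28 ± 0.05 (SD, n = 4, adjusted p = 0.0754) and -0.07 ± 0.08 (adjusted p = 0.603), so neither passed. Probe A_64_P018102 was well above background on all 4 arrays in each RNA at 24 h but was also dim. Its normalized log2 signal there was 6.59 in control RNA and 6.31 in treated RNA. It passed with an offset of 10 (-0.54, adjusted p = 0.0329), and was -0.25 with median centring (adjusted p = 0.149). It also passed with array weights, with the arrays of 1 time, and without 8 h replicate 1 (adjusted p from 0.0187 to 0.0242).

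The intracellular members of the family, chloride-proton exchangers of endosomes and lysosomes, showed no call. Clcn3 gave 0.02 and 0.01 at 24 h by its 2 probes, and Clcn7, the lysosomal exchanger also needed in osteoclasts, gave -0.06 ± 0.18. Clcn6 had a mean of -0.12 ± 0.14 at 24 h and of -0.39 ± 0.40 at 8 h. Its 8 h values were -0.97, -0.10, -0.14 and -0.34, the lowest on the array of replicate 1.

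Among the calcium-activated potassium channels, which open as calcium rises, Kcnn3 and Kcnma1 were carried by 3 of 11 probes. Kcnn3, the small-conductance channel that reappears in denervated muscle, had log2 ratios of -0.32, -0.08, -0.47 and -0.33 at 24 h and of -0.59, -0.13, -0.11 and -0.25 at 8 h. It was the only channel probe below 0 on all 8 arrays. Its means of -0.30 ± 0.16 at 24 h (adjusted p = 0.0675) and -0.27 ± 0.22 at 8 h (adjusted p = 0.27) did not pass. The 24 h value passed with an offset of 10 (-0.46, adjusted p = 0.0439) and was -0.12 with median centring (adjusted p = 0.338). It also passed with array weights, with the arrays of 1 time, and without 8 h replicate 1 or 2 (adjusted p from 0.0241 to 0.0308).

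Kcnma1, the large-conductance channel, differed in sign between its 2 carried probes at 24 h. Probe A_64_P131632 gave 0.12, 0.14, 0.10 and 0.01, all above 0. That probe was dim, with a normalized log2 signal at 24 h of 6.23 in control RNA and 6.32 in treated RNA. It was well above background on 2 of 4 arrays in control RNA at 24 h and on 4 in treated RNA. The other carried probe, A_64_P105078, was brighter, at 9.11 and 8.92, and was well above background on all 4 in each RNA. A further Kcnma1 probe, A_44_P259947 at chr15:949056-949115, was well above background on no array and was not carried. Why these probes differ in signal was not tested. Probe A_64_P105078 gave -0.01, 0.20, -0.46 and -0.50, a wide spread on both sides of 0. Neither mean passed (0.09 ± 0.06 and -0.19 ± 0.34). At 8 h probe A_64_P105078 had the lowest mean of all channel probes, -0.47 ± 0.50. That mean rested on values of -1.12 and -0.61 on the arrays of replicates 1 and 4, beside -0.03 and -0.13 on the others.

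The voltage-gated potassium channels, which repolarise the fibre, held 14 carried probes of 58, and none passed at either time. Kcna7, a Shaker-type channel of muscle, was at -0.03, -0.13, -0.18 and -0.60 at 24 h, all below 0 (mean -0.24 ± 0.25, adjusted p = 0.117, and 0.046 with array weights), and at 0.03 ± 0.09 at 8 h. Kcnc4, a fast Shaw-type channel, was below 0 on all 4 arrays at 24 h (mean -0.16 ± 0.09, adjusted p = 0.244).

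Kcna6 and Kcnq1 were each measured by 2 probes. Kcna6 gave -0.04 and -0.13 at 24 h and -0.30 and -0.14 at 8 h. Kcnq1 gave -0.06 and 0.00 at 24 h and 0.05 and -0.07 at 8 h, with opposite signs at both times. Kcnh3 was at -0.21 ± 0.31 at 8 h. The other voltage-gated probes did not pass, and all 14 ranged from -0.24 to 0.03 at 24 h and from -0.30 to 0.05 at 8 h.

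The inward rectifiers, which clamp the resting potential, were carried by 4 of 20 probes, with 24 h means from -0.05 to 0.12. Kcnj11, the pore of the ATP-sensitive channel, was at 0.07 ± 0.09 at 24 h and 0.07 ± 0.15 at 8 h. Kcnj12 was not well above background in control RNA on any of the 4 arrays at 24 h and was in treated RNA on all 4, so its control level is only a bound. Its log2 ratios were 0.12, 0.14, 0.24 and -0.03, on both sides of 0, and it did not pass (mean 0.12 ± 0.11, adjusted p = 0.345). Kcnj8, the pore partner of the sulfonylurea receptor in vessels, was at -0.05 ± 0.08.

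**Figure D4:**
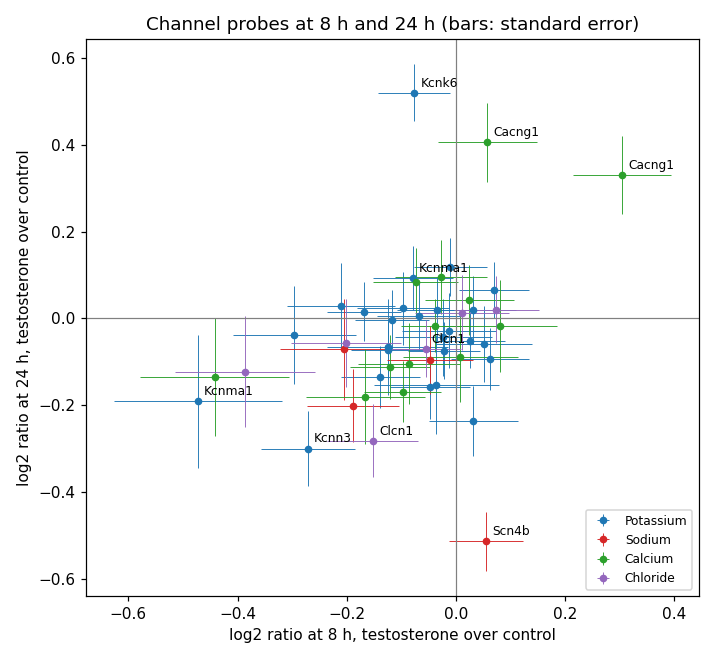
Fitted log2 ratio at 8 h (horizontal) and 24 h (vertical) of the 49 channel probes, with standard errors as bars and colours by ion. Kcnk6 (0.52 at 24 h) and Scn4b (-0.51) lie far from 0 on the vertical axis and near 0 on the horizontal axis, and most other probes lie within 0.2 of 0 on the vertical axis.

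At both times 43 of the 49 channel probes had a mean log2 ratio within 0.25 of 0. The median absolute log2 ratio at 24 h was 0.084 for the channel probes and 0.096 for all probes. At 8 h it was 0.074 and 0.095, so small ratios were not particular to the channels. At 24 h 5 probes were above 0 on all 4 arrays and 10 were below 0 on all 4. The same counts over all probes are not given here. The 5 highest at 24 h were Kcnk6, both Cacng1 probes, Kcnj12 and a Cacnb1 probe. The 5 lowest were Scn4b, Kcnn3, Clcn1 (probe A_64_P018102), Kcna7 and Scn4a. At 8 h the 5 highest were Cacng1, Cacna2d1 (0.08), Clcn3 (0.07), Kcnj11 and Kcnk5 (0.06), and the 5 lowest were Kcnma1, Cacna1i, Clcn6, Kcna6 and Kcnn3.

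The proteins that work beside the channels were read from lists, whose counts stand beside the 6.92% of all probes called at 24 h, 4.15% as higher and 2.77% as lower. Of the sodium-potassium pump and its FXYD regulators, which restore the ion gradients, 1 of 11 probes passed at 24 h as higher and none as lower. It was a probe of Fxyd2, a small pump regulator (log2 0.37 ± 0.10, adjusted p = 0.0136), whose other probe gave 0.19 ± 0.22. The pump's beta subunits Atp1b1 (0.19) and Atp1b2 (0.50, adjusted p = 0.0945) did not pass.

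Of the triad and calcium release partners of the calcium channel, 4 of 19 probes of 14 genes passed at 24 h, all as higher, and the list's median was 0.07. Both probes of Sypl2, a triad membrane protein, rose (log2 0.83 ± 0.44 and 0.59 ± 0.07). Jph2, a junctophilin that ties the tubule to the reticulum, rose by 0.54 ± 0.06, and Rrad, a small GTPase that binds calcium channel beta subunits, by 0.35 ± 0.18 (adjusted p = 0.045). Bin1, Casq1, Casq2 and Fkbp1a did not pass, and Ryr1, the release channel itself, was not carried.

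Of 16 probes for anchoring, trafficking and turnover of channels, Rrad passed as higher and 1 of 3 probes of Abcc9 as lower. Abcc9, the regulatory sulfonylurea receptor of ATP-sensitive potassium channels, gave -0.30 ± 0.07 (adjusted p = 0.0376), -0.21 and -0.13 by its 3 probes, all below 0. The other sulfonylurea receptor, Abcc8, gave 0.02, and Ank3, Fgf13 and Nedd4 did not pass. Of 17 probes for other ion channel families 1 passed, Clic1, a chloride intracellular channel protein (0.29 ± 0.10, adjusted p = 0.0313), while Ano1, Ano10, Ano6 and Clic4 did not.

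RefSeq promoters of assembly GRCr8, 250 bases before to 50 after each start, were matched by symbol to 23 of the 41 carried channel genes, among them Scn4b but neither Kcnk6 nor Cacng1. An androgen response element, written as AGAACA and TGTTCT with any 3 bases between, was in none of these 23, and in 0.0149% of all 33469 promoters. The single site TGTTCT, searched on both strands, was in 2 of 23 (Clcn7 and Scn4b) against 20.7% of all promoters. TGTTTAC, a forkhead motif, was in none of 23 against 3.78%, and the E-box CANNTG was in 16 of 23 against 72.1%. The single site is part of the full element, and all 4 motifs were searched on both strands. A match describes the letters only.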

How the data were processed

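Each array's scanner file holds spot intensity for both dyes, per the file headers. The submitters' processing notes name the software as Agilent Feature Extraction, version 9.5.3.1. The deposited log2 table equals the log2 ratio of the scanner's processed signals, treated over control, to within 1.35e-05, with column medians from -0.14 to 0.09, so its scale and direction are known. It and the processed signals served as alternatives.

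Mean intensities were background-corrected (normexp, offset 50, limma 3.58.1 in R 4.3.3) and loess-normalized within each array; 731 to 927 flagged gene spots per array were left out, and spots of a probe were averaged. Log2 ratios were turned to treated over control and fitted by limma with a coefficient for each time and for the dye, over 12074 probes, with Benjamini-Hochberg adjustment. The number of arrays limits the precision. Levels use Aquantile-normalized channels. The script was tested on simulated data.

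Of the member probes, 179 were named by RefSeq accession, 14 by symbol and 1 by a synonym. Named probes are those past the threshold, the 5 highest and lowest at each time, genes of a muscle channel list and genes with over 1 carried probe, and of partner lists the probes past the threshold and up to 4 others in alphabetical order. Members and lists were chosen with earlier results of these data known. Alternatives were the processed signals, the deposited values, median centring, offset 10, no filter, a strict filter, flagged spots kept, no dye term, array weights, 1 time only, a replicate block, the brightest probe, and each array left out. Some genes are not reported here.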

Additional observations from a re-analysis of the deposited data

Results flagged for a closer look

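Scn4b and Kcnk6 differed between the times by the test of the difference itself: the 24 h log2 ratio minus that at 8 h was -0.57 for Scn4b and 0.60 for Kcnk6. Time and slide cannot be told apart in these values.

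A single array far from the other 3 was found for 2 of 98 groups of 4 log2 ratios, and chance flags about 1 in 20 groups. The Kcnk3 log2 ratio at 8 h was -0.38 on the array of replicate 1, against -0.12 to -0.07 on the others. The Kcna6 probe A_64_P384267 had a log2 ratio of 0.058 at 8 h on the array of replicate 2, against -0.22 to -0.18 on the others.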

How the results depend on the processing

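The count of channel probes called at 24 h, 3, was 1 with median centring, 5 with an offset of 10, 7 with array weights and 6 with the arrays of 1 time in the fit, and 2 to 6 when single arrays were left out. The count called at 8 h, 0, ranged from 0 to 10 when single arrays were left out, the 10 coming without 8 h replicate 2. The count called between the times, 2, was 1 on the processed signals, on the deposited values and with the strict filter, and 0 with median centring; it ranged from 0 to 2 when single arrays were left out, with 0 without 8 h replicates 3 or 4 or 24 h replicates 1 or 3. The causes were not tested. No called log2 ratio changed sign under any alternative run. Kcnk6 kept its 24 h call under all 19 alternatives that tested it, Scn4b under 19 of 20, and Cacng1 probe A_43_P11994 under 12 of 19. These alternatives are not independent of each other. The deposited values repeat the processed signals, and leaving out an 8 h array leaves the 24 h log2 ratios of these 3 probes unchanged.

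With median centring 95.7% of calls at 24 h were higher, against 60.0% with loess, and the median of all probes moved to 0.12 at 8 h and 0.15 at 24 h. The replicate numbers were not shown to pair the arrays (correlations of same-numbered arrays' deviations of -0.26, 0.17, -0.17 and -0.07). A replicate block left the same 3 channel probes called at 24 h and the same 2 between the times, with 931 calls over all probes at 24 h in place of 835 and 342 between the times in place of 152. Signals of dim probes such as Kcnk6 are drawn toward equality by the offset, so its fold change is less certain than its direction.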
